A study of Mus musculus with 6 samples.

Results

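Genes of fatty acid synthesis and oxidation were examined in natural killer (NK) cells of the mouse, which are lymphocytes of the innate immune system with cytotoxic activity. The genes were taken from a list of 41 named enzymes, regulators and carriers, by their symbol in the array's annotation, and 39 of them were measured among 19943 genes. The other two, Acsl1 and Acsl3, had no probe set that named them alone and were not analysed here. In the grouping used below, 15 measured genes belong to synthesis, 17 to oxidation and 7 to neither (acyl-CoA synthetases, uptake and binding).

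The data came from 6 Affymetrix arrays, with 3 preparations of IL-18 generated NK cells and 3 of unstimulated NK cells. According to the growth protocol, which is attached to every array, cells isolated by NK1.1 stayed overnight in medium containing IL-18 (25 ng/ml) together with IL-2 (300 IU). Sorting took live NK1.1 positive, CD3 negative cells in both groups. The gate for IL-18 generated cells further required c-kit and no CD11b, whereas that for the unstimulated group required CD11b and no c-kit. Mouse strain and age, and whether the unstimulated cells passed through culture or saw IL-2, are not stated in the labels. Stimulus and gate changed together, so they cannot be told apart in any difference below. Values are on a log2 scale relative to each probe set's median over the 6 arrays. Where the groups do not overlap, this centring places the nearest arrays of both groups at equal distances from 0, so only differences between arrays are read. The values carry no expression level, so a gene near 0 in every array may be steady or undetected, and the labelled cell type cannot be checked by the presence of its markers. Root mean square differences over all genes ran from 0.16 to 0.23 between arrays of a group and from 0.57 to 0.63 between arrays of different groups, and the number of arrays limits the precision. The design text calls the preparations independent. No label says whether they came from separate animals, so p-values measure the spread between these arrays.

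Cells build fatty acids in the cytosol from acetyl-CoA, which ATP citrate lyase makes from citrate and acetyl-CoA synthetase makes from acetate. Acetyl-CoA carboxylase and fatty acid synthase then produce palmitate, which elongases and desaturases modify, and SREBP transcription factors drive many of these genes. Oxidation runs the other way in mitochondria: carnitine palmitoyltransferases bring acyl chains in, a cycle of dehydrogenases, hydratases and thiolases shortens them, and the electron transfer flavoprotein passes electrons to the respiratory chain. Activated lymphocytes are known for building lipid as they grow, while long-lived resting lymphocytes are known for oxidising it.

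Neither synthesis nor oxidation moved as a block in the IL-18 generated cells. Of the 39 measured genes, 10 rose and 9 fell at a limma adjusted p below 0.05, and 20 did not pass. That is 48.7% of the genes, against 36.4% of all genes tested, of which 19.7% were higher and 16.7% lower. The fall was the steeper side: 5 genes fell at least 2-fold (Cd36, Acss2, Elovl7, Cpt1a and Fabp4), where 3.24% of all genes did, and 0 rose that much, where 3.62% of all genes did. The median log2 change was -0.03 over these genes and -0.06 over all genes, and the median size of the change, whatever its direction, was 0.27 against 0.18. Values of the 2 groups did not overlap for 24 of the 39 (61.5%), against 48.6% of all genes. Genes that rose included Acaca and Fasn of palmitate synthesis and Acadvl, Acadsb, Echs1, Decr1, Etfa and Etfb of mitochondrial oxidation. Those that fell included Acss2 (acetate use), Cpt1a (entry of fatty acids into mitochondria), Acaa2 and Acaa1a (thiolases) and Cd36 (uptake).

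**Figure D1:**
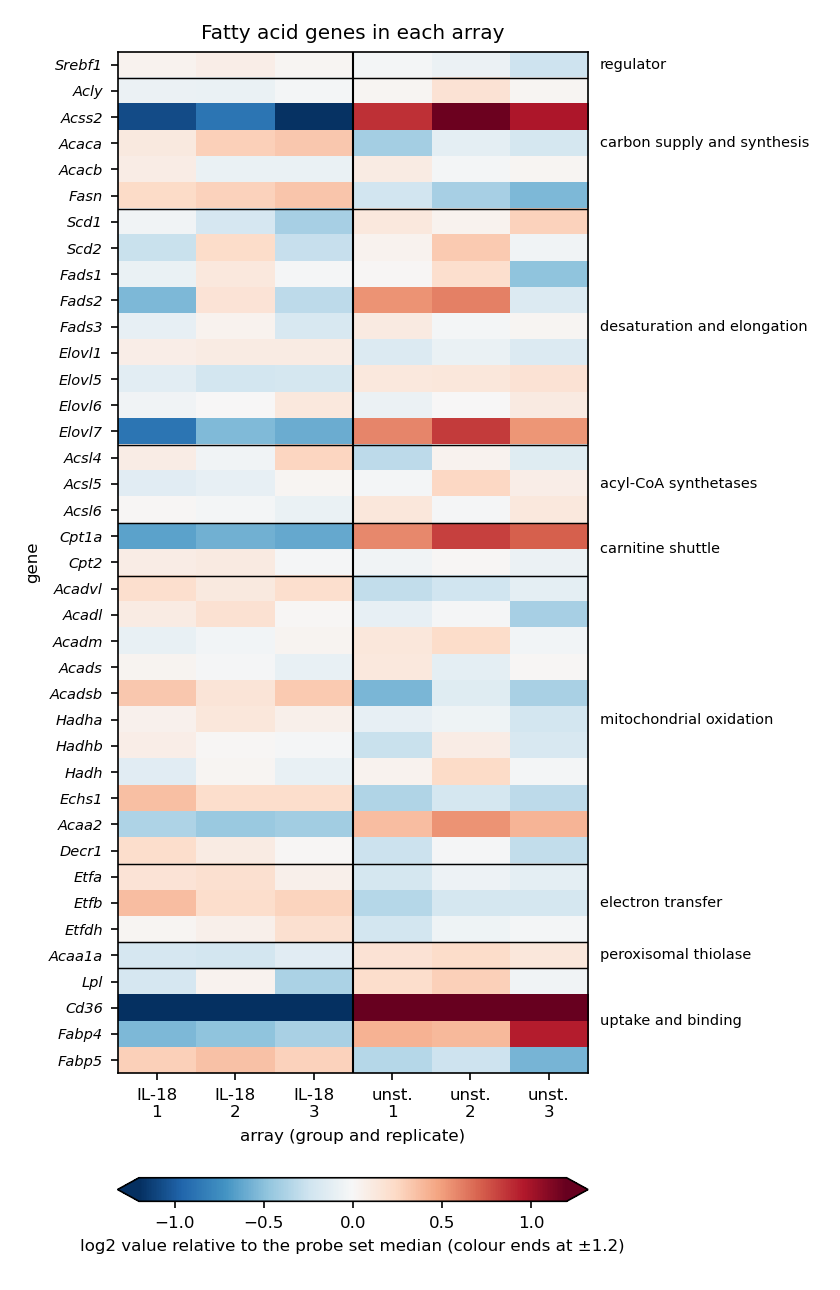
Log2 value of each measured gene (rows, grouped by role) in each array (columns, 3 IL-18 generated left of 3 unstimulated, marked unst.), centred on the median over all arrays. Cd36 and Acss2 are low in all IL-18 generated arrays and high in all unstimulated ones, whereas most genes of mitochondrial oxidation differ faintly between the groups.

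**Figure D2:**
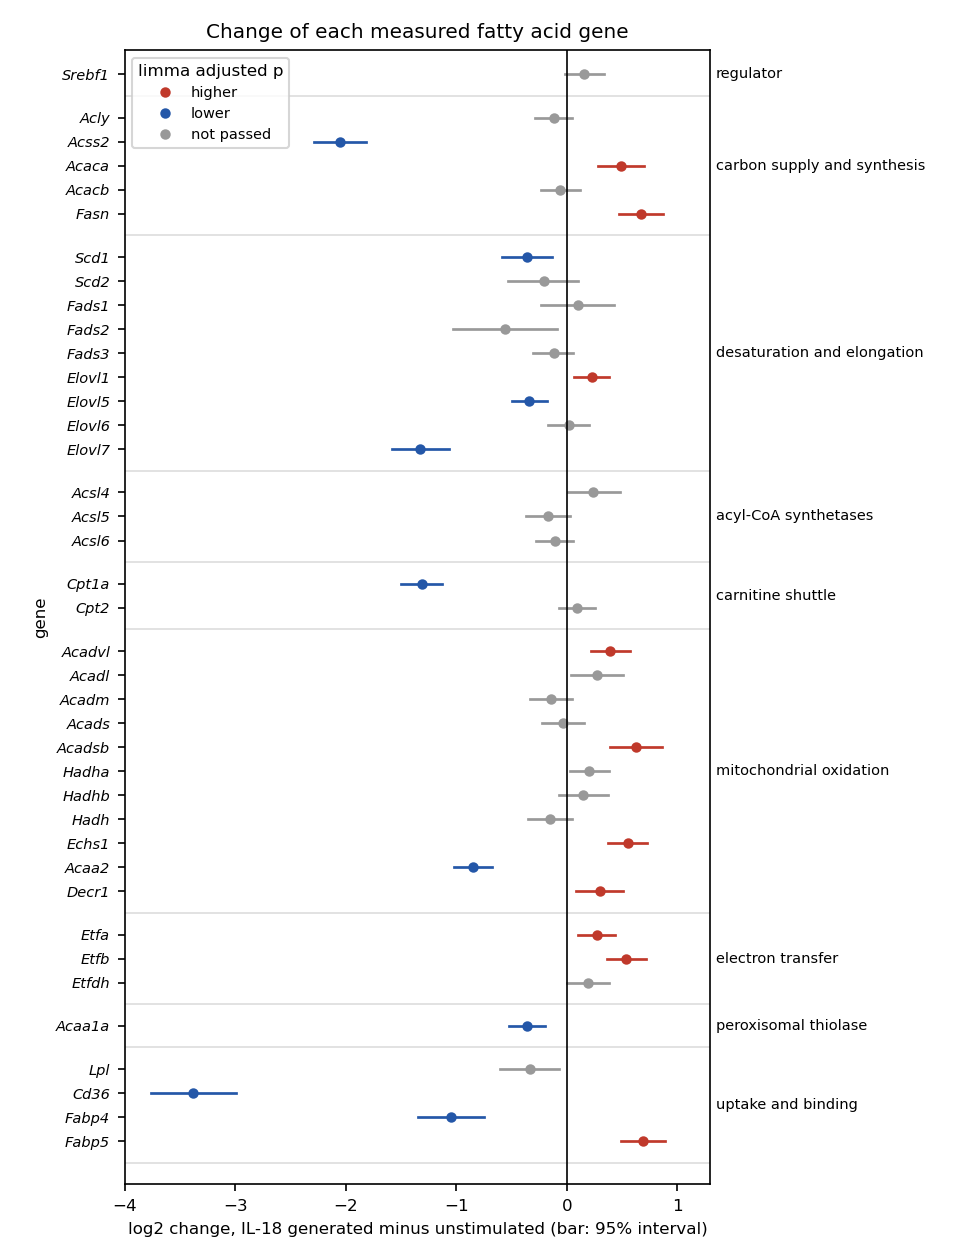
Log2 change (IL-18 generated minus unstimulated, points) with its 95% interval from limma (bars) for the 39 measured genes, coloured by the outcome of the test. The changes run from -3.38 for Cd36 to 0.69 for Fabp5, and the 5 changes of at least 2-fold are all decreases.

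In cytosolic synthesis, the carboxylase and the synthase rose while the acetate enzyme fell. Fasn, the fatty acid synthase, had values of 0.23, 0.28 and 0.33 in IL-18 generated cells, against -0.23, -0.40 and -0.54 in unstimulated cells. Its groups were well apart, and the log2 change was 0.67 ± 0.09 (here and below ± SE, from 3 arrays in each group), or 1.59-fold, with a limma adjusted p of 0.00018. Acaca, the carboxylase isoform that makes malonyl-CoA for synthesis, had 0.12, 0.29 and 0.32 in IL-18 generated cells, against -0.41, -0.12 and -0.21 in unstimulated cells. It rose by 0.49 ± 0.10, or 1.41-fold, with a limma adjusted p of 0.00209. Its 2 probe sets, taken singly, gave log2 changes of 0.43 and 0.55. Acacb, the isoform at the mitochondrial surface whose malonyl-CoA restrains fatty acid entry, overlapped between groups and did not pass, with a change of -0.06 and a 95% interval of -0.23 to 0.12.

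Acss2, the cytosolic and nuclear acetyl-CoA synthetase that uses acetate, had the largest change of the synthesis genes. It had -1.07, -0.88 and -1.19 in IL-18 generated cells, against 0.88, 1.18 and 0.97 in unstimulated cells. The lowest unstimulated array lay 1.76 above the highest IL-18 generated one, and Acss2 fell with a log2 change of -2.05 ± 0.10, or 4.15-fold, at a limma adjusted p of 2.42e-07. Acly, the citrate lyase that supplies the same acetyl-CoA from citrate, had -0.07, -0.08 and -0.02 in IL-18 generated cells, against 0.02, 0.17 and 0.02 in unstimulated cells. These values were separated by only 0.03, and Acly did not pass (-0.12, 95% interval -0.29 to 0.05, limma adjusted p 0.238). Srebf1, which encodes the SREBP isoforms best known for fatty acid genes, had 0.04, 0.08 and 0.02 in IL-18 generated cells, against -0.02, -0.07 and -0.25 in unstimulated cells. It did not pass either, with a change of 0.16 (95% interval -0.02 to 0.34, limma adjusted p 0.158), and the unstimulated replicate 3 lay farthest from the rest.

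The DNA just before the starts of Fasn and Acss2 is shown because both genes belong to the same cytosolic arm and moved in opposite directions. RefSeq promoter windows on GRCm38.p6, each with 250 bases before and 50 from the annotated start on, were found for 33 of the 41 genes, with 39 windows in all. The 150 bases ending just before the start follow, 5′ to 3′ in the gene's direction, with CCAAT on either strand (CCAAT or ATTGG) in capitals.
Fasn (chr11:120824548-120824697, minus strand): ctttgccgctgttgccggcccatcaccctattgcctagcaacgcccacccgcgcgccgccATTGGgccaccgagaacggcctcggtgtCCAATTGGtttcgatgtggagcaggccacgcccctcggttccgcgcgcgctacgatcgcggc
Acss2 (chr2:155517893-155518042, plus strand): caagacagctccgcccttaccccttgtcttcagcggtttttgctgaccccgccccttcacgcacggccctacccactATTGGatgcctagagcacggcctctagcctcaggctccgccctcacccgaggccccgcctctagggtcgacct
Fasn has 3 such matches in this stretch, 2 of which overlap, and Acss2 has 1. Windows with CCAAT on either strand made up 53.8% of the 39 windows and 37.4% of 32851 windows of the same length in the whole table. The sterol regulatory element spelling TCACNCCAC, searched on both strands, was found in 1 of the 39 windows, that of Acsl1, which was not measured, and in 1.24% of all windows. The E-box CACGTG occurred in 1 (Elovl5) and in 7.15% of all windows, and the estrogen-related receptor element TCAAGGTCA in 1 (Acsl6) and in 0.423%. These matches describe letters in short windows and are no evidence of binding or its absence.

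The 9 genes that desaturate or elongate fatty acids had a median change of -0.21, with 1 that rose, 3 that fell and 5 that did not pass, so that 44.4% were called, near the 36.4% of all genes. Elovl7, an elongase of long saturated chains, fell most, with -0.88, -0.53 and -0.60 in IL-18 generated cells, against 0.59, 0.84 and 0.53 in unstimulated cells. Its log2 change was -1.33 ± 0.11, or 2.51-fold lower (limma adjusted p 6.91e-06). Elovl5, which elongates polyunsaturated chains, had -0.13, -0.22 and -0.21 in IL-18 generated cells, against 0.13, 0.14 and 0.17 in unstimulated cells. The arrays of each group lay close together, and Elovl5 fell with a change of -0.34 ± 0.07 (limma adjusted p 0.0035). Elovl1, which makes very long saturated chains, had 0.08, 0.10 and 0.10 in IL-18 generated cells, against -0.16, -0.08 and -0.16 in unstimulated cells. It rose by 0.23 ± 0.07 (limma adjusted p 0.0275), but the call ended with the replicate number as a block and on leaving out any 1 array except unstimulated replicate 2, with limma adjusted p values between 0.0554 and 0.0889. Elovl6, which extends palmitate, had a change of 0.02 with a 95% interval of -0.17 to 0.20 and overlapping groups.

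Scd1, a desaturase that makes monounsaturated fatty acids, had -0.04, -0.20 and -0.40 in IL-18 generated cells, against 0.13, 0.04 and 0.28 in unstimulated cells. The groups were 0.08 apart and Scd1 fell with a change of -0.36 ± 0.10 (limma adjusted p 0.0188), a call that ended without IL-18 replicate 3 (0.0751) or unstimulated replicate 3 (0.0749). Its paralog Scd2 had -0.27, 0.22 and -0.28 in IL-18 generated cells, against 0.04, 0.31 and -0.04 in unstimulated cells. Replicate 2 was the highest array in each group, the groups overlapped, and the change of -0.21 did not pass (limma adjusted p 0.27). Fads2, the first desaturase of polyunsaturated fatty acid synthesis, had -0.54, 0.16 and -0.31 in IL-18 generated cells, against 0.54, 0.60 and -0.16 in unstimulated cells. Replicate 2 was again highest in each group, but unstimulated replicate 1 lay close to it, and unstimulated replicate 3 lay far below. Other members, among them Fads1, Lpl and Acss2, also had replicate 2 highest in each group. The Fads2 change of -0.56 ± 0.21 did not pass (limma adjusted p 0.0641), and its 95% interval, -1.03 to -0.09, was the lowest-reaching among the genes that did not pass. Fads2 passed in 4 of 14 alternatives, among them those without IL-18 replicate 2 (-0.76, limma adjusted p 0.0164) and without unstimulated replicate 3 (-0.80, limma adjusted p 0.00666), and its limma adjusted p reached 0.214 in others. Fads1, the later desaturase of that pathway, and Fads3, a related gene, had changes of 0.10 and -0.12 with overlapping groups.

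Acyl-CoA synthetases attach coenzyme A to free fatty acids and so serve both synthesis of lipids and oxidation. None of the 3 measured members passed limma's test, where 36.4% of all genes did. An unadjusted limma p below 0.05 was found for 8962 of the 19943 genes tested and for 1 of these members. This member was Acsl4, which prefers arachidonic acid, with a change of 0.24 ± 0.11 (unadjusted limma p 0.046, limma adjusted p 0.104). Acsl5 and Acsl6 had changes of -0.17 and -0.11, and the groups overlapped for all 3.

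The gene for the entry step of mitochondrial oxidation fell. Cpt1a, the carnitine palmitoyltransferase of the outer membrane that malonyl-CoA inhibits, had -0.64, -0.58 and -0.61 in IL-18 generated cells, against 0.58, 0.82 and 0.72 in unstimulated cells. The groups were separated by 1.15, more than the arrays of either group differed among themselves, and Cpt1a fell with a log2 change of -1.31 ± 0.08, or 2.49-fold (limma adjusted p 8.4e-07). Cpt2, the partner enzyme of the inner membrane, overlapped between groups and did not pass, with a change of 0.09 and a 95% interval of -0.07 to 0.26. The intervals of these partners do not overlap.

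The 11 genes of the oxidation cycle inside mitochondria had a median change of 0.20, with 4 that rose, 1 that fell and 6 that did not pass, so that 45.5% were called, where 36.4% of all genes were. Acadsb, a dehydrogenase of short branched chains that also serves isoleucine breakdown, had 0.32, 0.15 and 0.31 in IL-18 generated cells, against -0.55, -0.15 and -0.39 in unstimulated cells. It rose by 0.63 ± 0.11, or 1.54-fold (limma adjusted p 0.000798). Echs1, the short-chain enoyl-CoA hydratase, had 0.36, 0.21 and 0.21 in IL-18 generated cells, against -0.36, -0.21 and -0.31 in unstimulated cells. It rose by 0.55 ± 0.08, or 1.47-fold (limma adjusted p 0.000307). Acadvl, the dehydrogenase that starts the cycle on very long chains, had 0.20, 0.12 and 0.20 in IL-18 generated cells, against -0.30, -0.24 and -0.12 in unstimulated cells. It rose by 0.39 ± 0.08, or 1.31-fold (limma adjusted p 0.00244). Decr1, the reductase needed for unsaturated chains, had 0.21, 0.10 and 0.01 in IL-18 generated cells, against -0.26, -0.01 and -0.30 in unstimulated cells. Its groups were only 0.02 apart, and its rise of 0.30 ± 0.10 (limma adjusted p 0.0347) did not hold without IL-18 replicate 1 or 2 or unstimulated replicate 1 or 3, with limma adjusted p values of 0.0827 to 0.123.

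Acaa2 and Acaa1a fell, both coding for thiolases, which split off acetyl-CoA at the end of each round. Acaa2, the mitochondrial thiolase, had -0.37, -0.45 and -0.42 in IL-18 generated cells, against 0.37, 0.54 and 0.41 in unstimulated cells. All arrays of a group lay within a narrow band, and Acaa2 fell with a log2 change of -0.85 ± 0.08, or 1.8-fold (limma adjusted p 1.12e-05). Acaa1a, the thiolase of peroxisomes, had -0.20, -0.22 and -0.14 in IL-18 generated cells, against 0.17, 0.22 and 0.14 in unstimulated cells. It fell with a change of -0.36 ± 0.07, or 1.29-fold (limma adjusted p 0.00228). Hadha and Hadhb, the subunits of the trifunctional protein for long chains, which has a thiolase activity of its own in Hadhb, did not pass, with changes of 0.20 (95% interval 0.03 to 0.38) and 0.15 (-0.07 to 0.37). Hadha had 0.05, 0.14 and 0.06 in IL-18 generated cells, against -0.10, -0.05 and -0.22 in unstimulated cells, without overlap, and passed in 4 of its 14 alternatives, among them quantile normalization (limma adjusted p 0.0469).

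The remaining dehydrogenases of the cycle did not pass. Acadm and Acads, for medium and short chains, had changes of -0.14 and -0.03, and Hadh, the hydroxyacyl-CoA dehydrogenase of shorter chains, had -0.15, all with overlapping groups. Acadl, for long chains, had 0.10, 0.18 and 0.01 in IL-18 generated cells, against -0.10, -0.01 and -0.40 in unstimulated cells. Its groups lay 0.03 apart, and its change of 0.27 ± 0.11 did not pass (limma adjusted p 0.0696), though it did in 4 of 14 alternatives, among them the one without unstimulated replicate 2 (0.35, limma adjusted p 0.0248).

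Both subunits of the electron transfer flavoprotein, which collects electrons from the acyl-CoA dehydrogenases, rose. Etfb had 0.37, 0.21 and 0.27 in IL-18 generated cells, against -0.34, -0.21 and -0.21 in unstimulated cells, and rose by 0.54 ± 0.08, or 1.45-fold (limma adjusted p 0.000367). Etfa had 0.16, 0.19 and 0.06 in IL-18 generated cells, against -0.21, -0.06 and -0.12 in unstimulated cells. It rose by 0.27 ± 0.08, or 1.21-fold (limma adjusted p 0.0191), but not without IL-18 replicate 1 or 2 or unstimulated replicate 1, where limma adjusted p values were 0.0663, 0.0809 and 0.0682. Etfdh, the oxidoreductase that hands these electrons to ubiquinone, had 0.02, 0.06 and 0.19 in IL-18 generated cells, against -0.22, -0.05 and -0.02 in unstimulated cells. These groups were 0.04 apart and the change of 0.19 ± 0.09 did not pass (limma adjusted p 0.117). The stretches before the starts of Etfa and Etfb are shown because their products form 1 complex and the genes rose together, in the same form as for Fasn.
Etfa (chr9:55512244-55512393, minus strand): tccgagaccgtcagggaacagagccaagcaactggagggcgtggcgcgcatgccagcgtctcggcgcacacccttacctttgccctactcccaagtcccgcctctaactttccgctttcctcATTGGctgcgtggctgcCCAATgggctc
Etfb (chr7:43443922-43444071, plus strand): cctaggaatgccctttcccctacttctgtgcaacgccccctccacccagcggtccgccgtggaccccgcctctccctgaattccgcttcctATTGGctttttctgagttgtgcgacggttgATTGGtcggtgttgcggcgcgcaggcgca
Each has 2 matches to CCAAT on either strand, the Etfb pair both reading ATTGG and the Etfa pair one of each.

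Set side by side, synthesis had 3 genes that rose, 4 that fell and 8 that did not pass, and oxidation had 6 that rose, 3 that fell and 8 that did not pass. With each array left out in turn, 2 to 3 synthesis genes rose and 3 to 6 fell. In the same fits 4 to 9 oxidation genes rose and 3 fell each time. The counts over all genes moved as well, with 3384 to 4178 higher and 2651 to 4408 lower. The called share was 46.7% for synthesis and 52.9% for oxidation, where 36.4% of all genes were called (19.7% of all genes higher, 16.7% lower); the 3 of 15 synthesis genes that rose and the 3 of 17 oxidation genes that fell are near those shares. The median change was -0.12 over the 15 synthesis genes and 0.19 over the 17 oxidation genes. Averaged over its genes, synthesis stood at -0.18, -0.05 and -0.16 in IL-18 generated cells, against 0.11, 0.18 and 0.02 in unstimulated cells. Oxidation stood at 0.03, 0.01 and 0.00 in IL-18 generated cells, against -0.08, 0.06 and -0.07 in unstimulated cells, so that 1 unstimulated array, replicate 2, was higher than all IL-18 generated ones. The synthesis mean minus the oxidation mean was -0.14 ± 0.08 in IL-18 generated cells and 0.13 ± 0.05 in unstimulated cells (SD, n = 3 each), a difference of -0.28 described here without a test. On leaving out each array in turn it ran from -0.32 to -0.24. The arm means included a few large decreases. The genes left out next were picked from these same values as the largest decreases of each arm. Leaving them out therefore had to raise each mean, and large increases were not left out in the same way. The synthesis mean changed by -0.23 with all its genes and by -0.01 without Acss2 and Elovl7. The oxidation mean changed by 0.04 with all its genes and by 0.19 without Cpt1a and Acaa2.

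**Figure D3:**
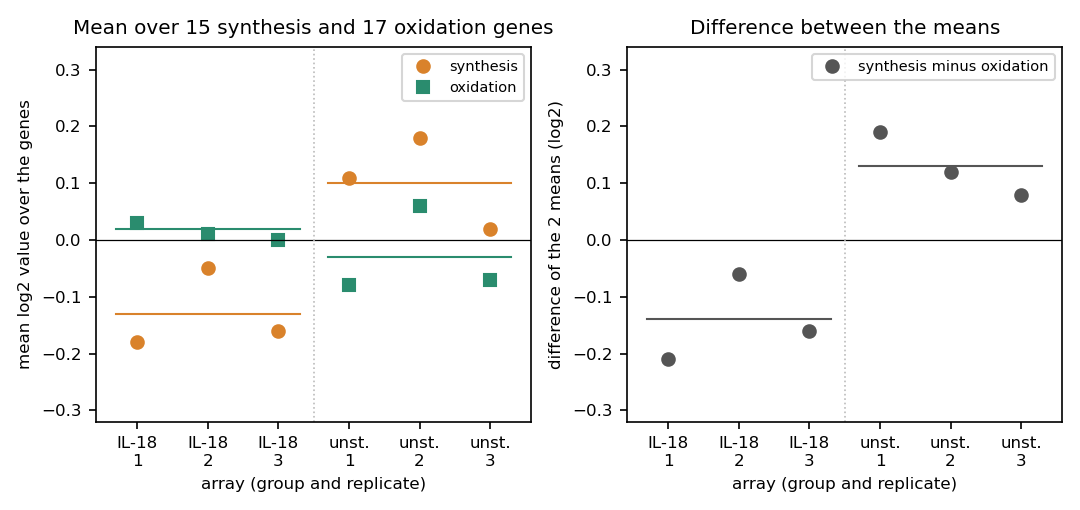
Mean log2 value over 15 synthesis and 17 oxidation genes in each array (left, points; lines are group means) and the difference between both means (right), with the IL-18 generated arrays left of the unstimulated ones. The difference is lower in all 3 IL-18 generated arrays (highest -0.06) than in all 3 unstimulated ones (lowest 0.08).

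Genes of fatty acid uptake and binding held the largest change of all 39. Cd36, the scavenger receptor that takes up long-chain fatty acids, had -1.70, -1.48 and -1.52 in IL-18 generated cells, against 1.48, 1.66 and 2.29 in unstimulated cells. It fell with a log2 change of -3.38 ± 0.17, or 10.4-fold (limma adjusted p 2.59e-07), and unstimulated replicate 3 was the highest array. Fabp4, the fatty acid binding protein of adipocytes and macrophages, had -0.54, -0.48 and -0.39 in IL-18 generated cells, against 0.42, 0.39 and 0.94 in unstimulated cells, with the same array highest. It fell with a change of -1.05 ± 0.13, or 2.07-fold (limma adjusted p 0.000126). Fabp5, the binding protein of the same family known from skin and lymphocytes, moved the other way, with 0.29, 0.35 and 0.28 in IL-18 generated cells, against -0.34, -0.25 and -0.56 in unstimulated cells. It rose by 0.69 ± 0.09, or 1.62-fold (limma adjusted p 0.000148), and each of its 2 probe sets gave 0.69. Lpl, the lipase that frees fatty acids from lipoproteins, had -0.20, 0.04 and -0.38 in IL-18 generated cells, against 0.21, 0.29 and -0.04 in unstimulated cells. With overlapping groups and a change of -0.33 ± 0.12, it did not pass (limma adjusted p 0.0525), but it passed in 5 of 14 alternatives.

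Markers of several other cell types also differed between the groups. All 11 measured markers of monocytes and macrophages, cells that carry Cd36 and Fabp4, were lower in the IL-18 generated arrays at a limma adjusted p below 0.05, led by Lyz2 (lysozyme) at -7.16 and Cybb (phagocyte oxidase) at -6.15. Their mean stood between -1.35 and -1.27 in IL-18 generated arrays and between 1.21 and 1.66 in unstimulated arrays, with unstimulated replicate 3 highest, as for Cd36 and Fabp4. All 10 neutrophil markers were lower too, with means of -1.22 to -1.04 in IL-18 generated arrays and of 2.23 and 1.23 in unstimulated replicates 2 and 3, the remaining one lying slightly below the last, led by Ngp at -5.66 and Cxcr2 at -3.65. The 6 measured B cell markers were lower, Ighm most, at -3.58, and then Cd22, at -1.18, with list means of -0.61 to -0.37 against 0.28 to 1.01. Of 7 dendritic cell markers 5 were lower and 2 higher, ranging from Cd209a at -2.93 and Itgax at -2.35 to Zbtb46 at 0.44 and Batf3 at 0.93, with list means of -0.42 to -0.29 against 0.17 to 0.60. The dendritic cell mean was likewise highest in unstimulated replicate 3. None of 5 adipocyte markers passed limma's test, where 36.4% of all genes did, and 0 had an unadjusted limma p below 0.05, against 8962 of 19943 genes. The adipocyte list means stayed within -0.06 to 0.03 against -0.08 to 0.07. Of 6 endothelial markers, 1 (Pecam1, also found on leukocytes) was higher, at 1.01, with list means of 0.01 to 0.08 against -0.11 to 0.02. The 10 NK markers were lower as well, with list means of -0.68 to -0.50 against 0.46 to 0.70, most so Prf1 (perforin) at -2.17 and Klrb1c (NK1.1) at -2.03. The part of these cells in the changes of fatty acid genes was not tested, and in bulk RNA fewer cells of a type and less RNA per cell cannot be told apart.

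**Figure D4:**
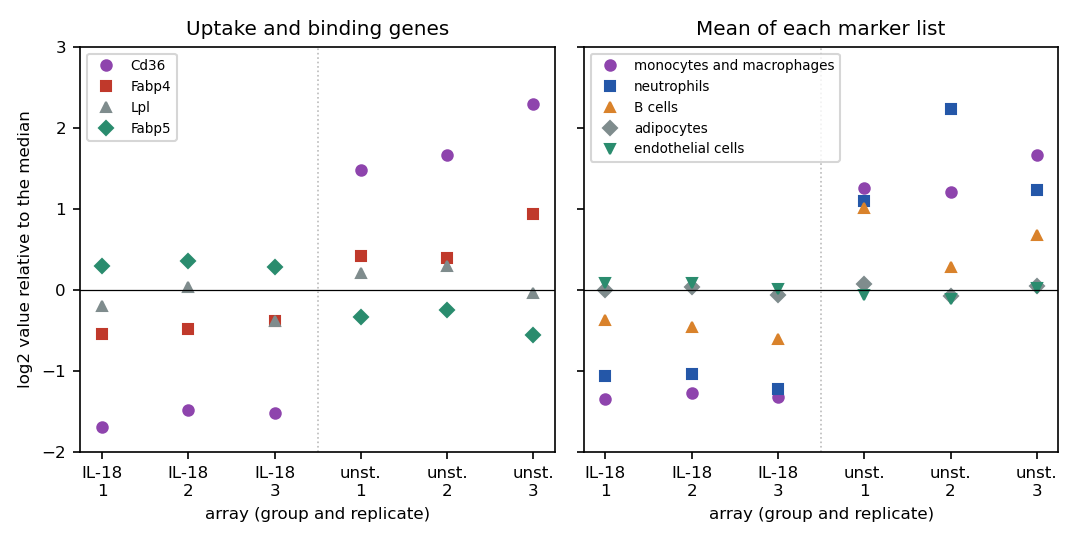
Log2 values of the 4 uptake and binding genes (left) and means of marker lists (right) in each array, relative to the probe set medians. IL-18 generated arrays stand left of unstimulated ones (unst.). The lists drawn are monocytes and macrophages, neutrophils, B cells, adipocytes and endothelial cells. The NK and dendritic cell lists, both lower on average in IL-18 generated arrays, are not drawn. The dendritic cell mean is also highest in unstimulated replicate 3. Cd36, Fabp4 and the monocyte and macrophage markers are each highest in unstimulated replicate 3, neutrophil markers are highest in unstimulated replicate 2, and adipocyte and endothelial markers stay near 0.

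Further genes of the pathway came from 4 lists outside the 39. The 20 other regulators had a median change of -0.11, with 4 that rose, close to the 19.7% of all genes that were higher, and 6 that fell, where 16.7% of all genes were lower. Srebf2, the SREBP best known for cholesterol genes, had 0.53, 0.47 and 0.59 in IL-18 generated cells, against -0.47, -0.60 and -0.49 in unstimulated cells. It rose by 1.05 ± 0.08 (limma adjusted p 2.44e-06), above the 95% interval of Srebf1 given earlier. Insig1, a feedback inhibitor of SREBP processing, rose by 1.02 ± 0.09. Pparg, a nuclear receptor whose targets include Cd36 and Fabp4, had -0.73, -0.73 and -0.97 in IL-18 generated cells, against 0.73, 0.76 and 1.46 in unstimulated cells. It fell with a change of -1.79 ± 0.17 (limma adjusted p 1.66e-05). Unstimulated replicate 3 was highest, as it was for the means of the monocyte and macrophage markers and of the dendritic cell markers. A part of Pparg in the changes of Cd36 and Fabp4 was not tested. Prkab1, a subunit of the energy sensor AMPK, which restrains synthesis and favours oxidation, fell with -0.80 ± 0.08. Of the other AMPK subunits, Prkag2 (-0.52) and Prkag1 (-0.24) also fell. Prkaa1 (-0.04), Prkaa2 (-0.02) and Prkab2 (-0.08) did not pass.

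The 22 other genes of synthesis and elongation had a median change of 0.11, with 9 that rose, against 19.7% of all genes, and 3 that fell, a share below the 16.7% of all genes. Hacd3, a dehydratase of the elongation cycle, had 1.43, 1.40 and 1.49 in IL-18 generated cells, against -1.77, -1.40 and -1.84 in unstimulated cells. Its rise of 3.11 ± 0.11 (limma adjusted p 2.88e-08) exceeded the highest rise among the 39 genes, 0.69, while its relative Hacd4 fell with -2.56 ± 0.17 (limma adjusted p 1.3e-06). Mecr, the last enzyme of the separate mitochondrial synthesis pathway that serves lipoic acid, rose by 1.49 ± 0.10. Idh1, a cytosolic source of the NADPH that synthesis uses, fell with -1.82 ± 0.11, and the third decrease was Scd4, with -0.37 ± 0.08, named after its value was seen to complete the count.

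The 22 other genes of oxidation and carnitine transfer had a median change of 0.07, with 9 that rose, against 19.7% of all genes, and 4 that fell, close to the 16.7% of all genes. The largest increases were Hsd17b10 at 0.85 ± 0.07 and Hibch at 0.64 ± 0.09, which serve the breakdown of isoleucine and valine. The largest decreases were Crot at -0.80 ± 0.11 and Acox3 at -0.61 ± 0.08, a carnitine transferase and an oxidase of peroxisomes. The 25 genes of uptake, storage and release had a median change of 0.03, with 9 that rose and 7 that fell, or 64% called against 36.4% of all genes. The mitochondrial acyl-CoA thioesterase Acot2 rose by 0.95 ± 0.10 and the monoacylglycerol lipase Mgll by 0.89 ± 0.10. Lpin1, a phosphatidate phosphatase of triglyceride synthesis, fell with -1.69 ± 0.09, and Plin2, which coats lipid droplets, fell with -1.06 ± 0.12. The highest limma adjusted p among the genes named here as rising or falling in these lists was 0.0379, for Prkag1.

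**Figure D5:**
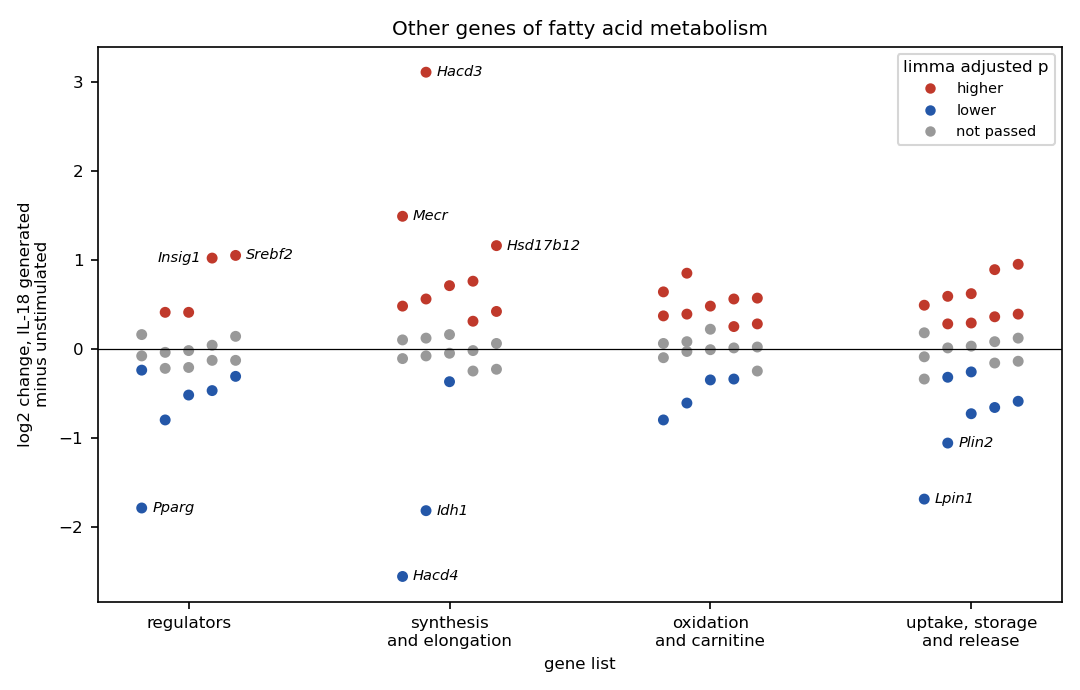
Log2 change (IL-18 generated minus unstimulated) of each measured gene in 4 further lists of fatty acid metabolism, coloured by limma's adjusted p, with names at changes of at least 1 in size. Increases and decreases stand in every list, from Hacd3 at 3.11 to Hacd4 at -2.56.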

How the data were processed

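Deposited values were those of the authors' series matrix for 28815 probe sets on 6 arrays. They were taken as log2 expression, centred by the authors on each probe set's median over the arrays (largest departure from 0, 5e-07); the scale was read from the values, whose widest range in a probe set is 7.77. How the authors summarized and normalized the arrays, and on which log base, was not stated in the labels. Array medians over genes were -0.025 to 0.039, and nothing was renormalized.

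Probe sets with 1 gene symbol in the platform annotation (21788; 1597 had several and 5430 were not listed) were averaged per gene. The comparison used lmFit and eBayes of limma 3.58.1 under R 4.3.3 on all arrays without covariates, with Benjamini-Hochberg adjustment over 19943 genes. The procedure was also run on simulated data with independent noise and a much smaller share of changed genes than was called here. That run does not show how the adjustment performs when many genes change. Sets of genes have counts, medians and means only. Tables and figures used Python 3.11.15, pandas 2.3.3, numpy 2.4.6 and matplotlib 3.10.9. Genes, lists and roles were chosen with earlier results of these data known. Every measured member is described. Of each further list, up to 2 increases and 2 decreases with the largest changes are named. Scd4 and the AMPK subunits besides Prkab1 were added to these. Same-numbered replicates were not treated as pairs. Their deviations from the group means correlated at 0.24, 0.01 and -0.02 across genes, against -0.29 to 0.25 for differently numbered ones. Deviations cancel out within each group, which ties these values together, so they cannot settle whether replicates were paired. Alternatives covered variance models, normalization, array weights, a replicate block, probe set summaries and leaving out each array.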

Additional observations from a re-analysis of the deposited data

How the results depend on the processing

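Over 14 alternatives, 15 of the 19 genes called kept their call in every one in which they had a value, and 4 (Scd1, Elovl1, Decr1 and Etfa) lost it in at least 1, as given beside each. Of the 20 genes not called, 13 were called under none and 7 (Scd2, Fads2, Acsl4, Acadl, Hadha, Hadhb and Lpl) under at least 1. No called change turned its direction. Acaca, Hadhb and Fabp5 had no value in the fit of genes with 1 probe set; their single probe sets, tested as an alternative chosen after seeing the data, gave the same calls. With the replicate number as a block, 10 of the 39 genes were higher and 11 lower, where Elovl1 was lost and Acadl, Fads2 and Lpl were gained; not every array correlated best with its own number. Leaving out each array in turn gave 7 to 14 of the 39 genes higher and 8 to 12 lower, the highest counts coming without unstimulated replicate 2 and without IL-18 replicate 2. Over all genes these fits gave 3384 to 4178 higher and 2651 to 4408 lower, both highest without unstimulated replicate 2. The mean change of the synthesis genes then ran from -0.28 to -0.19 and that of the oxidation genes from 0.02 to 0.09. Centred values give no signal over background, so dim genes were not filtered.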
